A study of Mus musculus with 11 samples.

Results

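The endoplasmic reticulum (ER) chaperones and the genes of the unfolded protein response were followed in mouse embryonic fibroblasts (MEFs) in which either p53 or the lincRNA Pint had been knocked down. The set held 37 genes, named for their place in the pathway, with no measured value in the rule: 9 stress sensors and transcription factors, 9 chaperones and co-chaperones, 7 disulfide and proline isomerases and oxidases, 9 genes of ER-associated degradation (ERAD), and 3 genes for secreted stress proteins and the translocon. The set was, however, chosen with earlier results of these data known. Each gene was read from the microarray probe sets whose annotation gave it as the only gene symbol. All 37 were found and all 37 passed the filter on low values, out of 16147 genes with a tested probe set. Levels are log2 intensities after robust multi-array averaging (RMA), so a difference of 1 is a doubling of the signal.

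There were 11 arrays in 4 groups. The p53 siRNA group (3 arrays) was set against the control siRNA group (3 arrays), and the Pint ASO group (3 arrays), which received a pool of antisense oligonucleotides against Pint, against the control ASO group (2 arrays). All cells were MEFs of a C57BL/6 x 129/SvJ background homozygous for a p53 allele silenced by a lox-stop-lox cassette (p53 LSL/LSL). Every group, the controls included, was infected with AdenoCre (24 h, multiplicity of infection 5) to restore p53, then transfected, and 24 h later given 150 nM doxorubicin, a DNA-damaging drug, for 12 h. No group without doxorubicin or without restored p53 was analysed here. Whether the arrays of a group stem from separate cultures is not given in the labels. The p-values therefore rest on the spread of these arrays alone, and that spread may be technical.

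The ER is where secreted and membrane proteins fold. When unfolded proteins accumulate, the sensors IRE1, PERK and ATF6 signal to the nucleus: IRE1 splices the Xbp1 mRNA, PERK phosphorylates the translation factor eIF2alpha and so raises ATF4, and ATF6 is cut to release a transcription factor. XBP1 and ATF6 are known to raise chaperones, disulfide isomerases and ERAD genes, many of them through an ER stress response element (ERSE) in their promoters. Fibroblasts secrete large amounts of collagen and so carry a high folding load.

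The arrays of a group correlated at 0.993 to 0.995 over all probe sets and those of different groups at 0.983 to 0.993. Lncpint, the Pint transcript, was measured at 8.60, 8.48 and 8.55 on the Pint ASO arrays, against 10.41 and 10.23 on the control ASO arrays, which is 29.2% of the control level (log2 change -1.78, SE 0.12, adjusted p 2.94e-05 by limma). With p53 siRNA it stood at 9.13, 9.02 and 9.06, against 9.43, 9.88 and 9.53 with control siRNA (log2 change -0.54, SE 0.11, adjusted p 0.00673). No probe set carried Trp53, the p53 gene, as its only symbol, so its knockdown was not analysed here.

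The promoters of the pathway's genes are shown first, because the ERSE is the sequence by which the group is best known. A RefSeq promoter (GRCm38.p6, 250 bases before to 50 after the start) was matched for 32 of the 37 genes; Atf6, Creb3l1, Hyou1, Derl1 and Manf had none in the table. The ERSE was searched on both strands as CCAAT, 9 bases, CCACG; the ERSE-II as ATTGG, 1 base, CCACG; and the unfolded protein response element (UPRE) as TGACGTGG or TGACGTGA. The ERSE was found for 10 of the 32 genes (31.2%), against 37 of 27025 genes with a promoter in the table (0.137%). The ERSE-II was found for 2 of 32 (6.25%), against 0.0444% of all genes, and the UPRE for 1 of 32 (3.12%), against 1.22%. The ERSE and ERSE-II share the letters CCACG, and TGACGTGG holds their reverse complement, but no 2 matches in these promoters overlapped. Hspa5, which encodes the master ER chaperone BiP (chr2:34771840-34772139, plus strand), Hsp90b1 (chr10:86705395-86705694, minus strand), Pdia6 (chr12:17266339-17266638, plus strand) and Herpud1 (chr8:94386179-94386478, plus strand) are printed in full, since the first is the textbook ERSE promoter and the others belong to genes that changed. Capitals mark the matches, spacers included, and a match on the other strand is in capitals as it reads on the gene's own strand.
Hspa5: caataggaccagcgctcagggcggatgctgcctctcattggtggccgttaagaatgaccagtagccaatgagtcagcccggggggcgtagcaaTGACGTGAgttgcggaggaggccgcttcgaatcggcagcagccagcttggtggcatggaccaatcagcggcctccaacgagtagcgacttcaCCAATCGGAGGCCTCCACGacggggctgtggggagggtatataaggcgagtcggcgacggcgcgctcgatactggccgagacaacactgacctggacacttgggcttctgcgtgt
Hsp90b1: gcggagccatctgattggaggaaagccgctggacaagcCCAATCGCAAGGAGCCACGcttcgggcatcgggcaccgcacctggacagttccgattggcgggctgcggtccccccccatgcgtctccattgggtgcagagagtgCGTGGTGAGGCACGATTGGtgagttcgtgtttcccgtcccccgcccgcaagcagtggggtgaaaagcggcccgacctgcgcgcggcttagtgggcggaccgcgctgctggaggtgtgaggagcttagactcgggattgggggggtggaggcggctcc
Pdia6: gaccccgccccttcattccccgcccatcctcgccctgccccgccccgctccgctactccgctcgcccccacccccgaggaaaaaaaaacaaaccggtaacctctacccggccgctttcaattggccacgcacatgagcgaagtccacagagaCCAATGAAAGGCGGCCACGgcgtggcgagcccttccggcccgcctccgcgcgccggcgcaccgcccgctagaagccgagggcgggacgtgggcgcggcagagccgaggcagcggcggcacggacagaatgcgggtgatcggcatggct
Herpud1: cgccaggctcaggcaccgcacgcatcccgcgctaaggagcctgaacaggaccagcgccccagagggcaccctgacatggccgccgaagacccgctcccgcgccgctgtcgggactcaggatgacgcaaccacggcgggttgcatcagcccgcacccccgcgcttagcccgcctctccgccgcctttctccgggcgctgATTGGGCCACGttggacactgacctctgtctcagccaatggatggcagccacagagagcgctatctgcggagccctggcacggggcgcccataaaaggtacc

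The ERSE matches of all 10 genes follow, each read on the strand on which it matched, with the fixed letters in capitals and the 9-base spacer in lower case. Hsp90b1 held 2 matches. They are shown so that the spacers can be read beside each other, the ends being identical by the search.
Hspa5: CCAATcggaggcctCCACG
Hsp90b1: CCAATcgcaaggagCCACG
Hsp90b1: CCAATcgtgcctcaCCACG
Dnajc3: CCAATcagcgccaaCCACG
Calr: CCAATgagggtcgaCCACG
Canx: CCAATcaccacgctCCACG
Pdia6: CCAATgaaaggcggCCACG
Ero1lb: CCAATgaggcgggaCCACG
Syvn1: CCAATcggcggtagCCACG
Derl3: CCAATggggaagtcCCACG
Creld2: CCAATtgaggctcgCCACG

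The ERSE-II matches of the other pair of genes lie at 7 to 17 bases after the start in Dnajb11, a J-domain co-chaperone, and at -52 to -42 in Herpud1, with the single spacer base in lower case.
Dnajb11: ATTGGcCCACG
Herpud1: ATTGGgCCACG

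A gene was called where its limma test had an adjusted p below 0.05 after Benjamini-Hochberg adjustment over all 26038 probe sets tested. With p53 siRNA, 6 of the 37 genes rose (Herpud1, Sdf2l1, Pdia6, Ero1l, Xbp1 and Hyou1, by 0.17 to 0.29 on the log2 scale), 1 fell (Ern1, by 0.23) and 30 were not called. Across the arrays, 10.6% of genes (7.97% of probe sets) rose with p53 siRNA and 10.6% of genes (8.96% of probe sets) fell, so 16.2% of the members rose and 2.70% fell beside a background of 10.6% each way. With Pint ASO, 3 rose (Herpud1, Ern1 and Atf6), 10 fell (Sdf2l1, Edem2, Eif2ak3, Pdia6, Creb3l1, P4hb, Pdia4, Hsp90b1, Creb3l2 and Ppib, by 0.17 to 0.41) and 24 were not called. The background was 11.3% of genes (8.49% of probe sets) higher and 13.9% of genes (10.7% of probe sets) lower with Pint ASO, beside 8.11% and 27.0% of the members. The median log2 change over the 37 genes was 0.06 with p53 siRNA, against 0.02 over all genes, and -0.10 with Pint ASO, against 0.01 over all genes.

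The calls differed in how firmly they rested on single arrays. With p53 siRNA, Herpud1 and Sdf2l1 kept their calls whichever of the 11 arrays was left out. Without control siRNA array 1, control siRNA array 2 or p53 siRNA array 3 only 2 genes were called higher, and without control siRNA array 3, p53 siRNA array 1 or p53 siRNA array 2 there were 3. With Pint ASO, 7 of the 13 calls were kept in all 11 such fits (Herpud1, Ern1, Sdf2l1, Edem2, Creb3l1, P4hb and Pdia4). The count of lower genes was 6 without control ASO array 1. With the ASO arm fitted alone, only Herpud1, Ern1, Sdf2l1 and Edem2 were called, 2 higher and 2 lower. In that fit 827 of all 26038 probe sets were called higher and 1063 lower, so the background was smaller too. The larger share of lower than higher members was not seen in it.

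**Figure D1:**
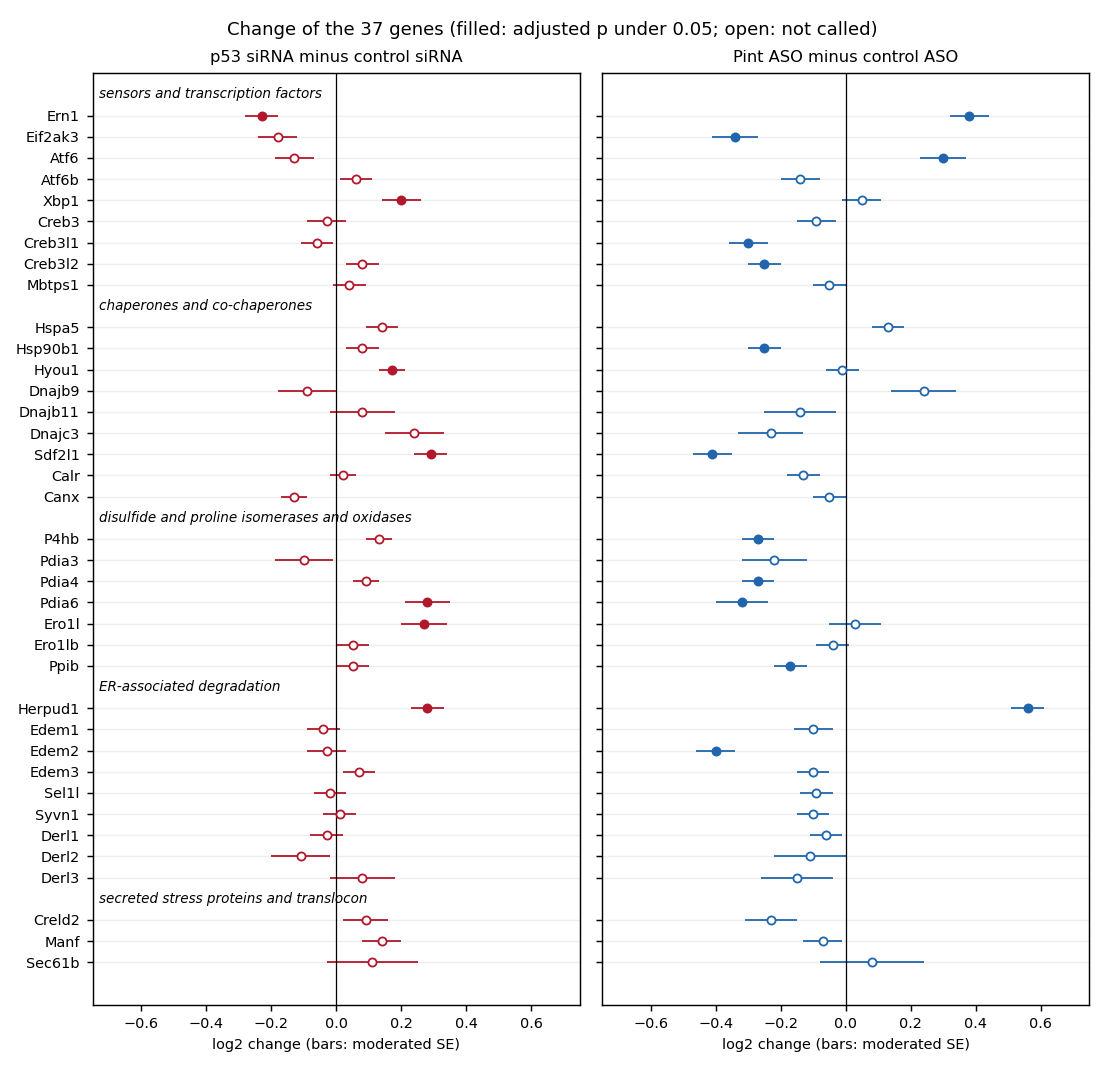
Log2 change of each of the 37 genes (horizontal axis) with p53 siRNA minus control siRNA (left, red) and Pint ASO minus control ASO (right, blue), genes in rows by role; bars are moderated standard errors, filled points have an adjusted p below 0.05. The filled points are 6 to the right and 1 to the left with p53 siRNA, and 3 to the right and 10 to the left with Pint ASO.

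Among the sensors and transcription factors, Ern1, which encodes IRE1alpha, the sensor that splices Xbp1, moved in opposite directions in the knockdowns. Its log2 intensity was 9.53, 9.55 and 9.42 with p53 siRNA, against 9.71, 9.73 and 9.74 with control siRNA. With Pint ASO it was 10.17, 10.32 and 10.27, against 9.89 and 9.84 with control ASO. Every p53 siRNA array lay below every control siRNA array and every Pint ASO array above both control ASO arrays. The log2 change was -0.23 (SE 0.05, adjusted p 0.0183) with p53 siRNA and 0.38 (SE 0.06, adjusted p 0.00218) with Pint ASO. The fall with p53 siRNA was not called when control siRNA array 2, control siRNA array 3 or p53 siRNA array 3 was left out, or when each array was centred on its median.

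Atf6, the sensor that is itself a transcription factor, stood at 10.93, 11.04 and 10.90 with Pint ASO, against 10.72 and 10.60 with control ASO. The groups did not overlap, and the log2 change of 0.30 (SE 0.07, adjusted p 0.0154) was not called without control ASO array 2 (adjusted p 0.107), with the ASO arm fitted alone or with a replicate block on the description number. With p53 siRNA Atf6 was at 10.38, 10.26 and 10.29, against 10.43, 10.37 and 10.52 with control siRNA, with overlapping groups and no call (log2 change -0.13, SE 0.06, adjusted p 0.216). Its paralog Atf6b was not called with either knockdown (0.06 with p53 siRNA and -0.14 with Pint ASO).

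Eif2ak3 encodes PERK, the kinase that slows translation. It stood at 9.34, 9.50 and 9.40 with Pint ASO, against 9.86 and 9.65 with control ASO, so it fell (log2 change -0.34, SE 0.07, adjusted p 0.00934) while the other two sensors rose. The call was lost without control ASO array 1 (adjusted p 0.0739). With p53 siRNA it was 9.79, 9.71 and 9.71, against 9.90, 9.94 and 9.91 with control siRNA, all lower but not called (log2 change -0.18, adjusted p 0.0968).

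Xbp1, the transcription factor made from the mRNA that IRE1 splices, rose with p53 siRNA only as a weak call. It was at 11.95, 11.96 and 11.99 with p53 siRNA, against 11.83, 11.68 and 11.80 with control siRNA (log2 change 0.20, SE 0.06, adjusted p 0.0399), and 7 of the 11 fits that left out an array did not call it. With Pint ASO it was at 11.78, 11.91 and 11.86, within the range of the control ASO arrays at 11.76 and 11.86 except for 1 array above it (log2 change 0.05, adjusted p 0.695). These probe sets measure the whole transcript, and spliced Xbp1 was not separated from unspliced Xbp1.

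Of the ATF6-related membrane-bound factors, Creb3l1 (OASIS) was at 10.66, 10.64 and 10.71 with Pint ASO, against 10.92 and 11.03 with control ASO, a log2 change of -0.30 (SE 0.06, adjusted p 0.0052). Creb3l2 (BBF2H7) also fell, by 0.25 (SE 0.05, adjusted p 0.00915), though not without control ASO array 2 (adjusted p 0.0527). Both factors are known for raising secretory capacity in matrix-producing cells. Creb3 (-0.09) and Mbtps1, the site-1 protease that cuts ATF6 in the Golgi (-0.05), were not called with Pint ASO, and none of these 4 genes was called with p53 siRNA (-0.06 to 0.08).

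Among the chaperones, Sdf2l1, a partner of BiP and the co-chaperone ERdj3, changed most in both knockdowns. It was at 11.22, 11.33 and 11.29 with p53 siRNA, against 10.99, 10.98 and 10.99 with control siRNA, and at 10.32, 10.39 and 10.48 with Pint ASO, against 10.78 and 10.84 with control ASO. All p53 siRNA arrays were above and all Pint ASO arrays below their controls. It rose by 0.29 with p53 siRNA (SE 0.05, adjusted p 0.00395) and was reduced by Pint ASO (log2 change -0.41, SE 0.06, adjusted p 0.00123), and both calls held whichever array was left out.

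BiP itself, Hspa5, the chaperone most often used as a readout of ER stress, was not called with either knockdown. It was at 13.18, 13.18 and 13.17 with p53 siRNA, against 13.05, 13.03 and 13.04 with control siRNA, and at 13.36, 13.35 and 13.26 with Pint ASO, against 13.25 and 13.13 with control ASO. Neither pair of groups overlapped, with the lowest Pint ASO array only 0.01 above the higher control. The log2 changes were 0.14 (95% interval 0.03 to 0.25, adjusted p 0.0783) and 0.13 (95% interval 0.01 to 0.25, adjusted p 0.121), and both rises were called when quantile normalization was applied again or an intensity trend was fitted.

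Hsp90b1, the ER member of the HSP90 family (GRP94), fell with Pint ASO to 12.44, 12.52 and 12.50, against 12.78 and 12.69 with control ASO (log2 change -0.25, SE 0.05, adjusted p 0.00904; not called without control ASO array 1, adjusted p 0.0723). With p53 siRNA its log2 change was 0.08 (adjusted p 0.295). Hyou1, a nucleotide exchange factor for BiP, was at 10.85 on all 3 p53 siRNA arrays, against 10.64, 10.70 and 10.70 with control siRNA (log2 change 0.17, SE 0.04, adjusted p 0.0257). That call was lost in 6 of the 11 fits without an array, and with Pint ASO the change was -0.01 (95% interval -0.12 to 0.10).

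The J-domain co-chaperones, which deliver clients to BiP, were not called with either knockdown. Dnajc3 (P58IPK) was at 10.79, 10.99 and 10.98 with p53 siRNA, against 10.71, 10.66 and 10.68 with control siRNA, and at 10.63, 10.47 and 10.29 with Pint ASO, against 10.77 and 10.62 with control ASO. The siRNA groups did not overlap and the ASO groups did, with log2 changes of 0.24 (adjusted p 0.113) and -0.23 (adjusted p 0.158). Dnajb9 (ERdj4), a known target of XBP1, changed by -0.09 with p53 siRNA and by 0.24 with Pint ASO (adjusted p 0.582 and 0.135). Dnajb11 (ERdj3) changed by 0.08 and -0.14. Their standard errors of 0.09 to 0.11 were among the larger ones of the 37 genes. The lectin chaperones calreticulin (Calr) and calnexin (Canx), which hold newly made glycoproteins, were not called either, with changes of 0.02 and -0.13 with p53 siRNA and of -0.13 and -0.05 with Pint ASO.

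**Figure D2:**
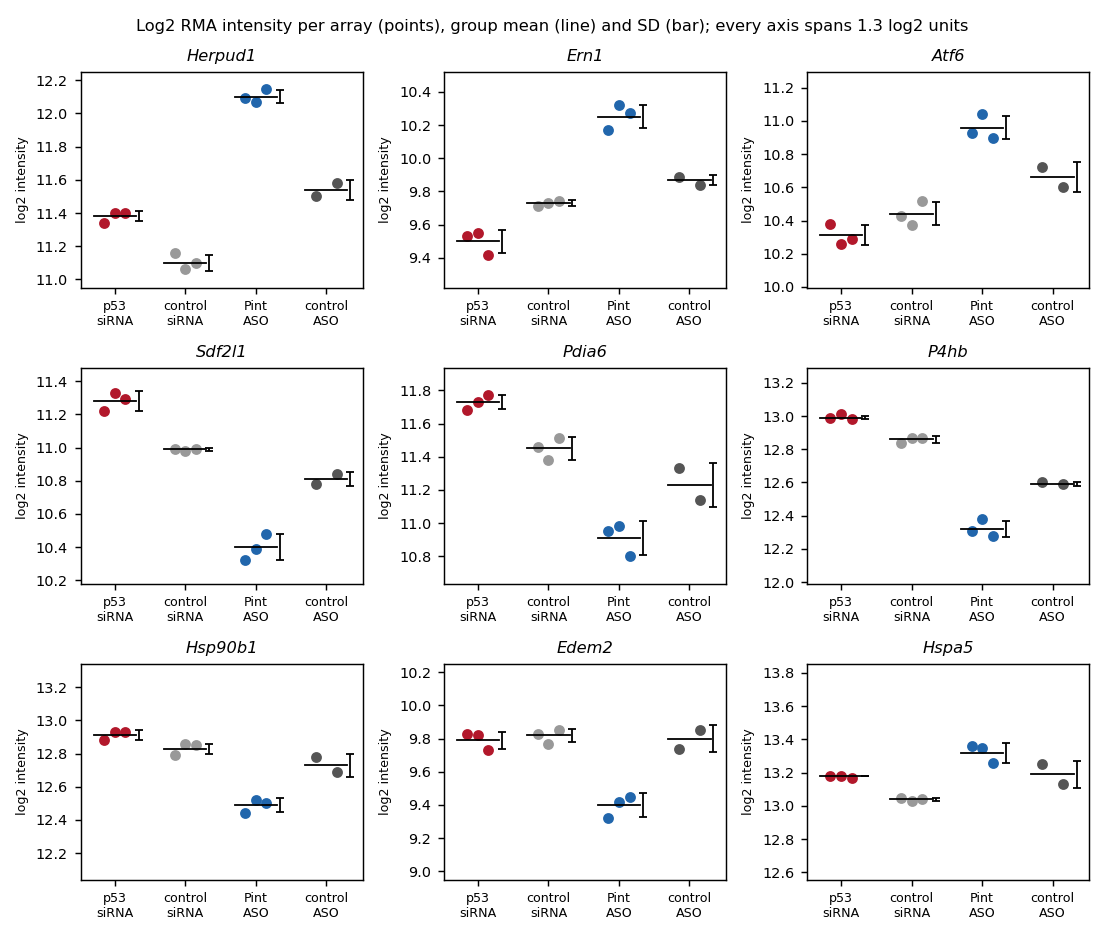
Log2 RMA intensity (vertical axis) of 9 of the genes on each array, in the groups p53 siRNA, control siRNA, Pint ASO and control ASO from left to right; points are arrays, lines are group means and bars are SDs. Herpud1 is higher in both knockdowns than in their controls, Sdf2l1 and Pdia6 are higher with p53 siRNA and lower with Pint ASO, and the control ASO arrays of Herpud1 also lie above the control siRNA arrays.

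The isomerases and oxidases, which form and rearrange disulfide bonds or turn proline bonds, had the lowest median with Pint ASO of the 5 roles, at -0.22. Of the 7 genes, 4 (57.1%) fell and none rose, beside 13.9% and 11.3% of all genes. None of the 4 was called with the ASO arm fitted alone, and P4hb and Pdia4 remained called without control ASO array 1. P4hb, protein disulfide isomerase itself, was at 12.31, 12.38 and 12.28 with Pint ASO, against 12.60 and 12.59 with control ASO (log2 change -0.27, SE 0.05, adjusted p 0.00335). With p53 siRNA it was at 12.99, 13.01 and 12.98, against 12.84, 12.87 and 12.87 with control siRNA, a difference in all arrays that was not called (log2 change 0.13, adjusted p 0.0567). Pdia6, another isomerase of the BiP complex, was at 10.95, 10.98 and 10.80 with Pint ASO, against 11.33 and 11.14 with control ASO, and at 11.68, 11.73 and 11.77 with p53 siRNA, against 11.46, 11.38 and 11.51 with control siRNA. It fell by 0.32 (SE 0.08, adjusted p 0.0168) with Pint ASO and rose by 0.28 (SE 0.07, adjusted p 0.0226) with p53 siRNA. The fall was not called without control ASO array 1 (adjusted p 0.132) and the rise was not called in 4 of the 11 fits that left out an array.

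Pdia4 (ERp72) dropped by 0.27 on the Pint ASO arrays (SE 0.05, adjusted p 0.00502), and its dimmer second probe set gave -0.29 without a call (adjusted p 0.0655). Ppib, cyclophilin B, a proline isomerase that acts on procollagen, fell by 0.17 (SE 0.05, adjusted p 0.0399), a call that 9 of the 11 fits without an array lost. Pdia3 (ERp57), the isomerase that works with calnexin and calreticulin, was not called (-0.22, 95% interval -0.45 to 0.00). Of the oxidases that recharge the isomerases, Ero1l (now Ero1a) was at 11.86, 11.69 and 11.77 with p53 siRNA, against 11.52, 11.47 and 11.51 with control siRNA, and rose by 0.27 (SE 0.07, adjusted p 0.0262; lost in 5 of the 11 fits). Ero1l changed by 0.03 with Pint ASO (95% interval -0.15 to 0.20). Ero1lb (now Ero1b) lay between 6.57 and 6.71 on all arrays, just above the filter, and was not called.

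In ERAD, the route by which misfolded proteins leave the ER for the proteasome, Herpud1 stood apart. It encodes a scaffold of the Hrd1 ubiquitin ligase, and its promoter above holds the ERSE-II. It was at 11.34, 11.40 and 11.40 with p53 siRNA, against 11.16, 11.06 and 11.10 with control siRNA, and at 12.09, 12.07 and 12.15 with Pint ASO, against 11.50 and 11.58 with control ASO. No groups overlapped, and it was the only one of the 37 genes called higher in both knockdowns. The log2 change was 0.28 (SE 0.05, adjusted p 0.00315) with p53 siRNA and 0.56 (SE 0.05, adjusted p 0.000142) with Pint ASO, or 121% and 148% of the control level. Both calls held whichever array was left out.

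Edem2, which starts the mannose trimming that marks glycoproteins for removal, was at 9.32, 9.42 and 9.45 with Pint ASO, against 9.74 and 9.85 with control ASO, and so fell by 0.40 (SE 0.06, adjusted p 0.00205), or to 76.0% of the control level. With p53 siRNA it was at 9.83, 9.82 and 9.73, against 9.83, 9.77 and 9.85 with control siRNA, with overlapping groups (log2 change -0.03). Its relatives Edem1 (-0.10) and Edem3 (-0.10), the Hrd1 ligase Syvn1 (-0.10), its partner Sel1l (-0.09) and the derlins Derl1 (-0.06), Derl2 (-0.11) and Derl3 (-0.15) were not called with Pint ASO, nor with p53 siRNA (-0.11 to 0.08). With Pint ASO 1 of the 9 ERAD genes (11.1%) rose and 1 (11.1%) fell, close to the 11.3% and 13.9% of all genes.

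Of the last 3 genes, the secreted stress proteins Creld2 and Manf and the translocon subunit Sec61b, none was called in either knockdown. Creld2 was at 11.45, 11.45 and 11.24 with Pint ASO, against 11.66 and 11.56 with control ASO, lower on every array without reaching a call (log2 change -0.23, 95% interval -0.40 to -0.06, adjusted p 0.0645). Manf changed by 0.14 with p53 siRNA and -0.07 with Pint ASO. Sec61b had the largest standard errors of the group (0.14 and 0.16), and none of its 3 probe sets was called.

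**Figure D3:**
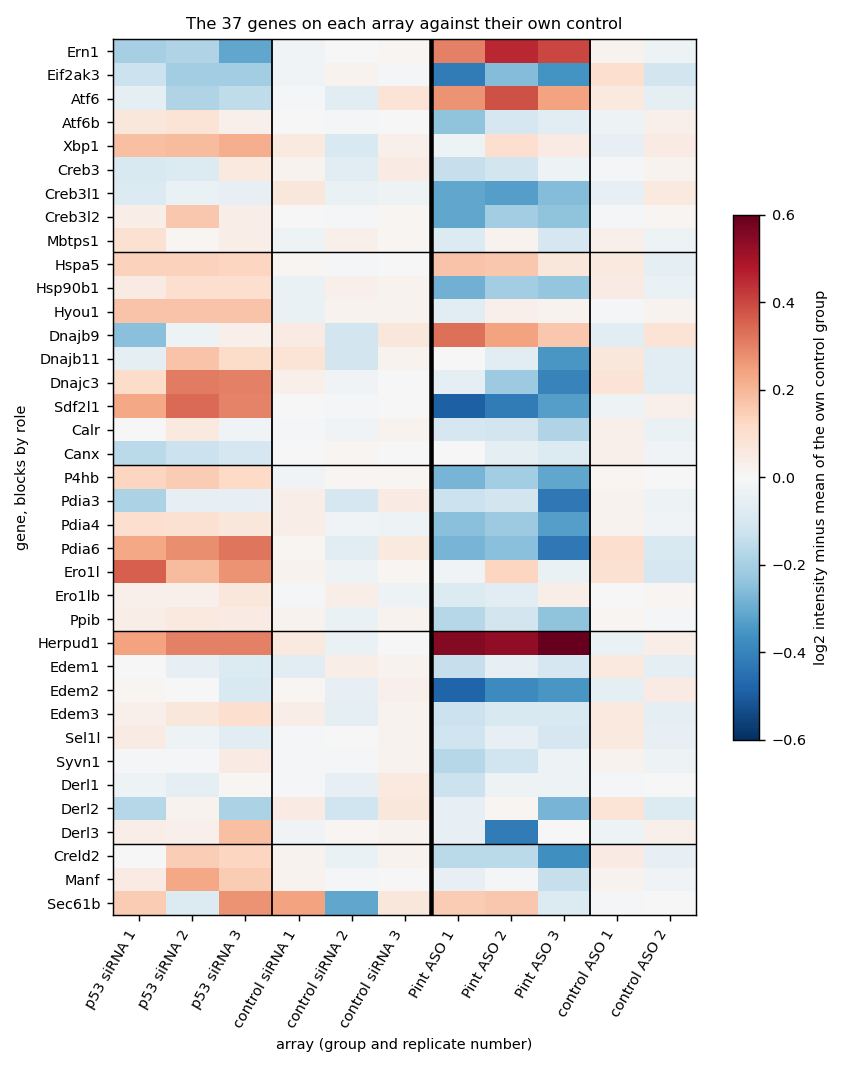
Heat map of the 37 genes (rows, blocks by role) on the 11 arrays (columns), coloured by log2 intensity minus the mean of the array's own control group, red above and blue below; the scale ends at 0.6 either way. Herpud1 is red in both knockdowns, Ern1 is blue with p53 siRNA and red with Pint ASO, and most isomerase squares are blue with Pint ASO.

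The knockdown effects were then set against each other by the difference between them, Pint effect minus p53 effect, in the same limma fit. The comparisons share no control arrays. It was called for 12 of the 37 genes (32.4%), beside 24.1% of all genes (18.5% of probe sets). The difference was positive for Ern1 (0.61, SE 0.08, adjusted p 0.000754), Atf6 (0.43, SE 0.09, adjusted p 0.0111) and Herpud1 (0.29, SE 0.07, adjusted p 0.0204). It was negative for Sdf2l1 (-0.71, SE 0.08, adjusted p 0.000269), Pdia6 (-0.60, SE 0.10, adjusted p 0.00325), Dnajc3 (-0.47), P4hb (-0.40), Edem2 (-0.37), Pdia4 (-0.35), Creb3l2 (-0.33), Hsp90b1 (-0.33) and Ppib (-0.23). Sdf2l1 and Pdia6 were called higher with p53 siRNA and lower with Pint ASO, and Ern1 was called lower with p53 siRNA and higher with Pint ASO, while 21 of the 37 genes were called in neither. The share of all genes called in both knockdowns, in the same or opposite directions, or in neither was not counted. Whether these numbers are unusual is therefore not known. The differences of Dnajc3 and Ppib were lost in 9 and 10 of the 11 fits that left out an array, those of Atf6 and Edem2 without control ASO array 2 (adjusted p 0.052 and 0.0557), and that of Herpud1 without control siRNA array 1 or control ASO array 1. The median difference over the 37 genes was -0.17, and -0.11 without control ASO array 1.

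**Figure D4:**
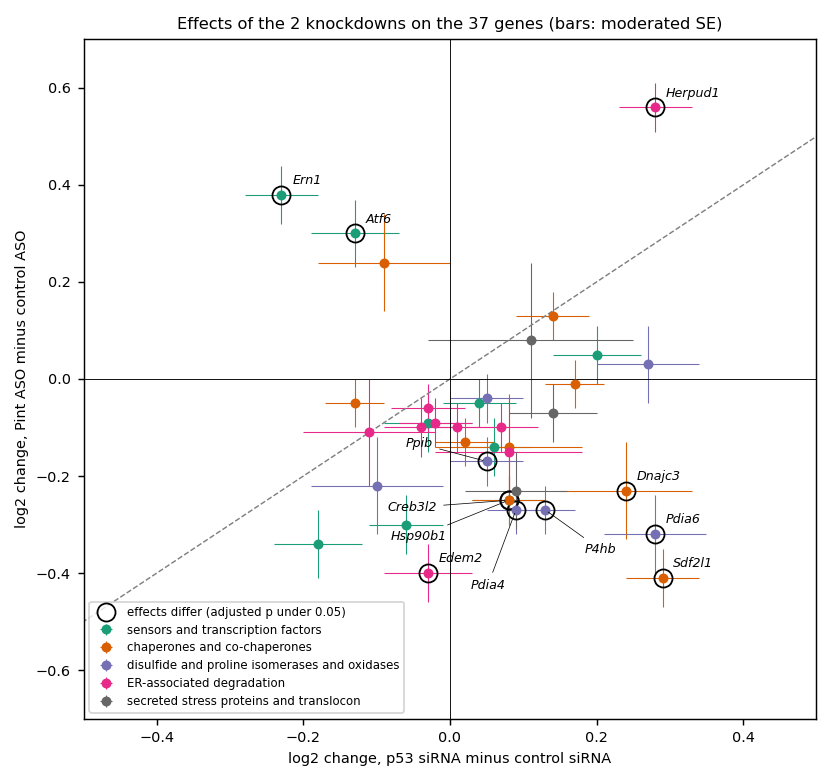
Log2 change with p53 siRNA (horizontal axis) against log2 change with Pint ASO (vertical axis) for the 37 genes, coloured by role, with moderated standard errors; the dashed line marks equal change and rings mark the 12 genes whose effects differed. Herpud1 lies at the upper right, Ern1 and Atf6 at the upper left, and Sdf2l1 and Pdia6 at the lower right.

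The controls of the siRNA and ASO arms differed too, and this touches Herpud1. Its mean was 11.54 on the control ASO arrays and 11.10 on the control siRNA arrays, a log2 difference of 0.44 (SE 0.05, adjusted p 0.00337) that is nearly as large as its change with Pint ASO, which uses the same control ASO arrays. P4hb was lower on the control ASO arrays than on the control siRNA arrays by 0.27 (adjusted p 0.0147). No other member was called, so 2 of 37 differed, beside 4.81% of all genes (4.02% of probe sets). Lncpint, the target of the ASO pool and not one of the 37, differed as well. It was higher on the control ASO arrays than on the control siRNA arrays by 0.71 (SE 0.12, adjusted p 0.0137 by limma). The kind of oligonucleotide and the arm of the experiment cannot be told apart here.

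The wider pathway was read from 5 further lists of genes, also chosen with earlier results of these data known. The PERK and ATF4 branch, the arm in which PERK slows general translation while ATF4 raises genes of amino acid supply and stress, held 20 genes. With Pint ASO 15 of the 20 (75%) rose and none fell, beside 11.3% and 13.9% of all genes, with a median log2 change of 0.37. The count was 12 without control ASO array 1 and 10 in a fit of the ASO arrays only. The largest rises were of Ppp1r15a (GADD34, which reverses eIF2alpha phosphorylation; 0.88, adjusted p 3.28e-05), Chac1, a glutathione-degrading enzyme (0.84), Trib3, a pseudokinase target of ATF4 (0.73), and Cebpg, a partner of ATF4 (0.70). Ppp1r15a was at 10.39, 10.50 and 10.37 with Pint ASO, against 9.58 and 9.51 with control ASO. The same branch was also higher on the control ASO arrays than on the control siRNA arrays. There 12 of 20 genes (60%) were called higher and none lower, beside 4.81% of all genes called in either direction. Chac1 was higher by 1.01 and Trib3 by 0.76. With p53 siRNA 5 of the 20 (25%) rose and 5 (25%) fell, beside 10.6% of all genes each way. Among them were Sesn2 (-0.62) and Ddit4 (-0.58), both stress genes known as p53 targets, Nupr1 (0.54) and the cystine transporter gene Slc7a11 (-0.40). Sesn2 (0.57) and Slc7a11 (0.56) rose with Pint ASO.

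Of the other ER folding and N-glycan genes, 16 of the 31 tested (51.6%) fell with Pint ASO and none rose, beside 13.9% of all genes lower, with a median of -0.25. The proline isomerase genes Fkbp7 (-0.59, adjusted p 0.0131) and Fkbp14 (-0.57, adjusted p 0.00121), the thioredoxin-like isomerase Txndc5 (-0.51, adjusted p 0.000301) and Sil1, a nucleotide exchange factor for BiP (-0.46, adjusted p 0.00252), fell most. With p53 siRNA 4 rose, among them Fkbp2 (0.46), Fkbp14 (0.26) and Pdia5 (0.25), and 3 fell, among them Fkbp9 (-0.30), shares of 12.9% and 9.68% that are close to the 10.6% of all genes each way. Of 29 other translocation genes 11 (37.9%) fell with Pint ASO and none rose (median -0.17), including the oligosaccharyltransferase subunit Ostc (-0.38), the translocon-associated Ssr4 (-0.37), the signal recognition particle receptor Srpr (-0.36) and the signal peptidase subunit Spcs2 (-0.34). With p53 siRNA 4 of the 29 (13.8%) rose, among them Tram2 (0.37), Ssr1 (0.26) and Ostc (0.23). In the same comparison 1 (3.45%) fell (Srp72, -0.39), beside 10.6% of all genes each way. Without control ASO array 1 the counts of lower genes with Pint ASO were 10 for folding and 4 for translocation, and a fit of the ASO arm alone left 6 and 2.

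Of 25 other ERAD genes, 2 (8%) rose and 5 (20%) fell with Pint ASO, near the 11.3% and 13.9% of all genes. Those that fell included the lectin genes Os9 (-0.44) and Erlec1 (-0.41), the ubiquitin ligase Rnf5 (-0.40) and Ufd1l (-0.34). With p53 siRNA none rose and 4 (16%) fell (Ubxn4 the most, -0.24), beside 10.6% of all genes each way. Without control ASO array 1, 1 ERAD gene was called higher and 1 lower with Pint ASO. Of 18 genes of UPR signalling and ER stress survival, 2 (11.1%) rose and 3 (16.7%) fell with Pint ASO, also near the share of all genes. With p53 siRNA 3 (16.7%) rose and 1 (5.56%) fell, beside the same 10.6% each way. The higher count with Pint ASO was 1 without control ASO array 1. Casp12, a caspase tied to the ER membrane in rodents, had the largest change with Pint ASO of the genes in these lists. It was at 8.21, 8.22 and 7.96 with Pint ASO, against 9.53 and 9.34 with control ASO (log2 change -1.30, adjusted p 2.66e-05), and at 10.19, 10.27 and 10.24 with p53 siRNA, against 9.59, 9.63 and 9.64 with control siRNA (log2 change 0.61, adjusted p 0.000487). Wfs1, an ER calcium regulator, rose by 0.57 with Pint ASO, and Traf2, an adaptor of IRE1, rose by 0.29 with p53 siRNA and by 0.23 with Pint ASO. With p53 siRNA, leaving out a single array took the higher and lower counts of these lists to as few as 3 and 3 for the PERK and ATF4 branch, 2 and 1 for folding, 2 and 1 for translocation, 0 and 1 for ERAD, and 2 and 0 for UPR signalling.

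**Figure D5:**
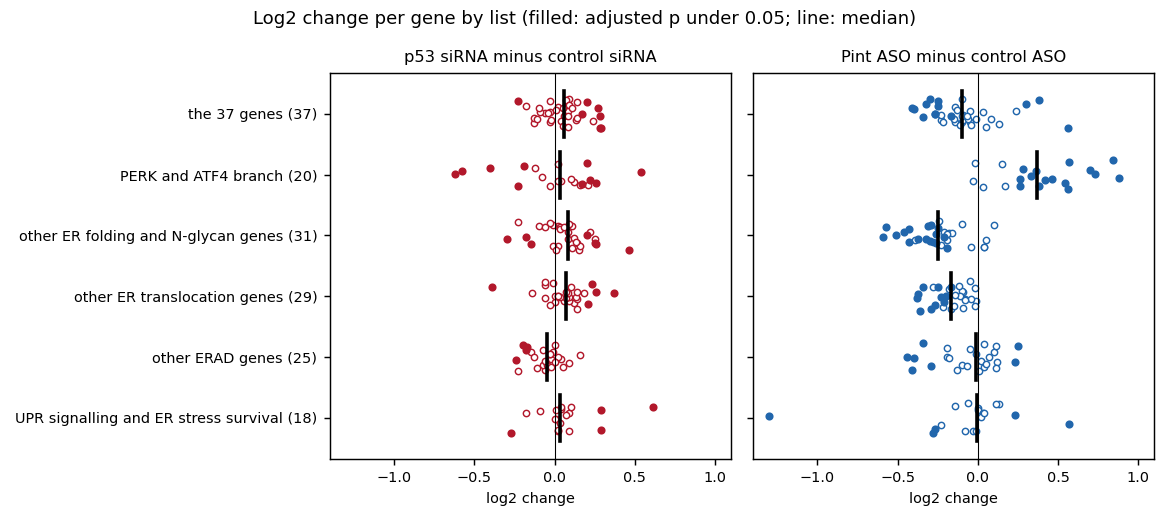
Log2 change of single genes (points) in the 37 genes and the 5 further lists of the pathway, with p53 siRNA minus control siRNA (left) and Pint ASO minus control ASO (right); filled points have an adjusted p below 0.05, vertical lines are medians and numbers in brackets are genes tested. With Pint ASO the median of the PERK and ATF4 branch is 0.37 and that of the folding and N-glycan genes is -0.25.

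The changes were also read by promoter. Of the 12 members with an ERSE or ERSE-II, 2 (16.7%) rose and none fell with p53 siRNA (median 0.08), and 1 (8.33%) rose and 2 (16.7%) fell with Pint ASO (median -0.13, range -0.32 to 0.56). Of the 20 members with a listed promoter and no match, 3 (15%) rose and 1 (5%) fell with p53 siRNA (median 0.05), and 1 (5%) rose and 7 (35%) fell with Pint ASO (median -0.10). Of 12618 other genes with a listed promoter and no match, 10.5% rose and 11.2% fell with p53 siRNA, and 11.4% rose and 13.7% fell with Pint ASO, so the counts of the 12 genes were close to that share. Of the 3 genes whose ERSE promoters are printed above, Hsp90b1 (-0.25) and Pdia6 (-0.32) fell with Pint ASO, and Hspa5 (0.13) was not called. Of the ERSE-II genes, Herpud1 rose (0.56) and Dnajb11 was not called (-0.14, SE 0.11). Sdf2l1 and Edem2, the genes that fell most, held none of the 3 motifs in this window. Only exact matches were counted, so genes without a match may still hold near matches, which were not searched.

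The labelled cell type was checked with 11 fibroblast marker genes, none of which was at or below the filter on all arrays. With Pint ASO 9 of the 11 (81.8%) fell and none rose, beside 13.9% and 11.3% of all genes. With p53 siRNA 7 of the 11 (63.6%) rose and none fell, beside 10.6% of all genes each way. Their summed linear intensity was 61510 to 63640 with Pint ASO, against 75060 to 75207 with control ASO, and 88813 to 89408 with p53 siRNA, against 77763 to 79788 with control siRNA. The collagen gene Col3a1 changed by -0.95 with Pint ASO and by 0.67 with p53 siRNA. Markers of other cell types had much lower sums, some of which differed between groups. The sum of 7 macrophage and blood markers, 2 of them at or below the filter on all arrays, was 1225 to 1300 with p53 siRNA, against 2008 to 2126 with control siRNA, and 1593 to 1642 with Pint ASO, against 2015 to 2030 with control ASO. Cd68, a lysosomal protein gene of macrophages, fell in both (-1.04 with p53 siRNA, adjusted p 1.41e-06, and -0.47 with Pint ASO, adjusted p 0.000303), and Cd14 fell with p53 siRNA (-0.51). The sum of 5 endothelial markers was 701 to 726 with Pint ASO, against 561 to 581 with control ASO. Of these markers 1 was called higher with Pint ASO (Kdr, 0.77, adjusted p 0.001) and 1 was called lower (-0.17). Their sum was 570 to 602 with p53 siRNA, against 538 to 571 with control siRNA. The sum of 6 epithelial markers was 1002 to 1071 with Pint ASO, against 1121 to 1169 with control ASO, and 1282 to 1301 with p53 siRNA, against 1314 to 1390 with control siRNA. Of the 5 epithelial markers tested, 1 (20%) was called lower in each knockdown and none higher. The sum of 7 muscle and neural markers was 1554 to 1678 with Pint ASO, against 1486 to 1561 with control ASO, and 1355 to 1449 with p53 siRNA, against 1340 to 1483 with control siRNA. Such sums can hide opposite changes. Of the 6 tested, 1 (16.7%) was called higher and 1 (16.7%) lower with p53 siRNA, within a range of -0.87 to 0.29. With Pint ASO 1 (16.7%) was called lower and none higher. In bulk RNA fewer cells of a type and less RNA per cell cannot be told apart, and the part of the fibroblast and other markers in the changes of the ER genes was not tested.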

How the data were processed

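The processed table held log2 RMA intensities, deposited by the authors, for 34760 probe sets on 11 arrays. RMA corrects background, applies quantile normalization and summarises probes, so a shift common to all genes would be removed. The main methods name the Mouse Genome 430 2.0 array, while the supplementary methods and platform annotation name Mouse Gene 1.0 ST, whose probe set identifiers matched the table. RNA (300 ng) was amplified and biotin-labelled, per the labels. Array medians were 7.31 to 7.38. The annotation gave 1 gene symbol for 21640 probe sets, several for 1321 and none for 11799.

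A probe set was tested where its log2 intensity was above 6 on at least 2 arrays of a group (26038 probe sets). One limma fit (limma 3.58.1, R 4.3.3) with 4 group means gave moderated tests, Benjamini-Hochberg adjusted over all 26038, called below 0.05. All contrasts share its estimate of the spread. A gene with several tested probe sets was read from the one with the highest mean over all arrays. The number of arrays limits the precision.

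All 37 genes are named by role. Values per array are given for Lncpint, for up to 8 called genes with the largest change in each knockdown, for genes called in both, for the 6 largest called differences between knockdowns, and, chosen after their values were seen, for Hspa5, Hsp90b1, Creld2, Ppp1r15a and Casp12. Each further list names up to 4 called genes per knockdown by size, Traf2 and the genes repeated in the other knockdown included. The members and lists were chosen with earlier results of these data known. The fit was tested on simulated data. Alternatives covered the filter, scaling, intensity trend, arms fitted alone, a replicate block, the probe set rule, a threshold of 3 on limma's B statistic (the study gives B over 3 for its gene lists, while its supplementary methods also name fold change limits set per contrast, not applied here), and leaving out each array. Promoters came from RefSeq (GRCm38.p6) and were used for motifs only. The protein sequences were not used here.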

Additional observations from a re-analysis of the deposited data

Results flagged for a closer look

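For 12 of the 37 genes the effect of Pint ASO differed from that of p53 siRNA, by the test of the difference itself in the limma fit (adjusted p below 0.05), on 3 against 2 and 3 against 3 arrays. That is 32.4% of the members, beside 24.1% of all genes (18.5% of probe sets). On the log2 scale, Pint effect minus p53 effect was 0.61 for Ern1, 0.43 for Atf6 and 0.29 for Herpud1. It was -0.71 for Sdf2l1, -0.60 for Pdia6, -0.47 for Dnajc3, -0.40 for P4hb, -0.37 for Edem2, -0.35 for Pdia4, -0.33 for Creb3l2, -0.33 for Hsp90b1 and -0.23 for Ppib. The differences of Dnajc3 and Ppib were weak, being lost in 9 and 10 of the 11 fits that left out an array. Ern1, Sdf2l1 and Pdia6 were called in opposite directions in the knockdowns, while for Dnajc3 neither knockdown alone was called and only the difference was. The share of all genes called in opposite directions was not counted. The arms also used different kinds of oligonucleotide and separate controls, and their part in these differences was not tested.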

How the results depend on the processing

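None of the 37 genes changed direction in a called comparison under the alternatives run. With p53 siRNA the 6 higher members became 2 with a replicate block on the title number and 0 at B over 3, and 2 to 7 when 1 array was left out. The 1 lower member became 0 after median centring, 2 with an intensity trend, 2 with each arm fitted alone, 2 with probe sets with a gene symbol only and 0 at B over 3, and 0 to 1 without an array. With Pint ASO the 3 higher members became 1 at B over 3 (2 to 3 without an array), and the 10 lower members became 2 with each arm fitted alone and 0 at B over 3 (6 to 10 without an array). The 12 differences between effects became 1 at B over 3 (8 to 12 without an array), with medians of -0.18 to -0.11. The 2 differences between controls became 1 with the title block and 1 at B over 3 (1 to 2 without an array). The cause of these shifts was not tested.

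Replicate numbers were used as a block only as an alternative. Deviations of same-numbered arrays correlated at -0.284, -0.181 and -0.0371 in the siRNA arm. In the ASO arm they correlated at -0.0463 and -0.42 by title number. By description number, which differs for the control ASO arrays, the correlations were positive, at 0.42 and 0.375. The 2 control ASO arrays deviate from their mean by equal and opposite amounts, so these ASO values are not independent. Whether arrays of the same number were handled together was not tested. Across all probe sets the calls with Pint ASO were 2211 higher and 2774 lower, but 827 and 1063 with each arm fitted alone, 1676 lower without control ASO array 1 and 1405 higher without control ASO array 2. Those between controls were 595 higher and 451 lower, but 546 and 252 after centring, 246 and 125 with the title block, 282 and 183 with the description block, 149 and 153 without control ASO array 1, 427 and 210 without control ASO array 2, and 283 to 313 higher and 136 to 238 lower without 1 of the 3 control siRNA arrays. The control ASO group had 2 arrays, which limits every comparison that uses it; without either, its remaining array is assumed to vary like the other groups.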

Other observations

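Outside the 37 genes, 37 genes with a promoter in the table held an ERSE or ERSE-II by the same search, and 15 of them had a tested probe set. With Pint ASO 3 of the 15 rose (Rnf151 by 0.77, Rbm39 by 0.23 and Pan2 by 0.18) and 3 fell (Nucb1 by 0.46, Spats2l by 0.45 and Krtcap2 by 0.22), with a median of 0.08, that is 20% each way beside 11.4% higher and 13.7% lower among genes without a match. With p53 siRNA 2 rose (Adcy3 by 0.26 and Spats2l by 0.25) and 1 fell (Alg12 by 0.15), with a median of 0.09 (13.3% and 6.67%, beside 10.5% and 11.2%). Nucb1, which encodes a Golgi calcium-binding protein, changed by -0.06 with p53 siRNA. These genes were named after their values were seen.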
